A study of Homo sapiens with 6 samples.

Results

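The regions described here are 2190 H3K27ac peaks of M2 macrophages that each lay over 2 or more separate H3K27ac peaks of THP-1 cells. They were chosen by position alone: M2 peaks under 3000 bp wide that overlapped at least 2 THP-1 peaks by at least 1 bp. They are 2190 of the 53952 M2 peaks under 3000 bp (4.06%) and of 56420 M2 peaks in all. Another 16794 M2 peaks under 3000 bp overlapped exactly 1 THP-1 peak. The reverse case, in which 1 THP-1 peak lay over 2 or more M2 peaks, comprised 926 of 31444 THP-1 peaks (2.94%).

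The study profiled M2 macrophages, phagocytes in the alternatively activated state, and THP-1, a leukaemia line labelled as human monocytes, both grown in RPMI medium with fetal bovine serum. The labels do not say from which cells, or by what treatment, the M2 macrophages were made. The H3K27ac peak lists of both are used here, from 1 library per cell type, while the libraries for YY1 and input were not analysed here. Nothing measures the spread between libraries in this design, and the cell types were therefore compared without a test. Bracketed ranges after shares are exact 95% binomial (Clopper-Pearson) intervals for counting error alone, and those after medians are quartiles. Positions are in hg19, the Y chromosome was left out, and coordinates stand for gene names, since an hg19 annotation was not used here. For the same reason the cell types were not checked against marker genes.

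H3K27ac is acetylation of lysine 27 on histone H3, laid down by the acetyltransferases p300 and CBP, and it marks active promoters and enhancers. The mark sits on nucleosomes, whereas the transcription factors of an active element bind in a stretch depleted of nucleosomes. A single element can therefore show acetylation on both of its sides with a dip between them. A peak caller reports such a profile as 1 peak or as several, depending in part on whether the signal in the dip passes its threshold against the local background. The length of the dip can matter as well. In cells in bulk, acetylation in more cells and more acetylation per cell cannot be told apart.

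Summits of the joining M2 peaks held a median of 87 fragments (quartiles 54 to 142), and summits of the joined THP-1 peaks held 56 (33 to 91). These fragment numbers are not in the lists and were solved for each peak from its fold enrichment and p-value. They are not scaled between the libraries. The narrowest peak was 307 bp wide in the M2 list and 345 bp in the THP-1 list. Neighbouring peaks of the THP-1 list lay at least 151 bp apart. In the M2 list 1 pair was 113 bp apart and the others at least 151 bp.

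Most of these M2 peaks joined a pair. Exactly 2 THP-1 peaks lay under 2112 of them, or 96.4% (95.6 to 97.2), and 3 lay under the other 78, or 3.56% (2.82 to 4.42). Under M2 peaks of 3000 bp or more, which are not part of this set, up to 8 THP-1 peaks were found. Together the 2190 peaks took in 4448 different THP-1 peaks, 14.1% of the THP-1 list, of which 10 reached into a pair of joining M2 peaks. They were spread along the genome: only 3.92% had the next joining peak within 10000 bp. For M2 peaks over 1 THP-1 peak that share was 26.8%, in a set with many more peaks.

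The gaps that the M2 peaks filled were short, and their length is bounded in advance. A gap must fit in an M2 peak under 3000 bp, and neighbouring THP-1 peaks lay at least 151 bp apart. Over all 2268 filled gaps the median was 310 bp (95% order-statistic interval 299 to 318, quartiles 221 to 443), and the range ran from 151 to 1637 bp. Under 500 bp were 80.4% of the gaps, and 2.82% reached 1000 bp or more. The filled gaps added up to 854.0 kb, which is 19.8% of the 4307 kb inside joining M2 peaks. THP-1 peaks made up 64.0% of that sequence, and the flanks outside the outermost THP-1 peaks made up 16.2%. Within a single M2 peak the gaps took a median of 17.9% of the width (12.4 to 26.1). Under M2 peaks of 3000 bp or more, which are outside this set, the median gap was 372 bp (247 to 689.5) and the longest 6863 bp.

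**Figure D1:**
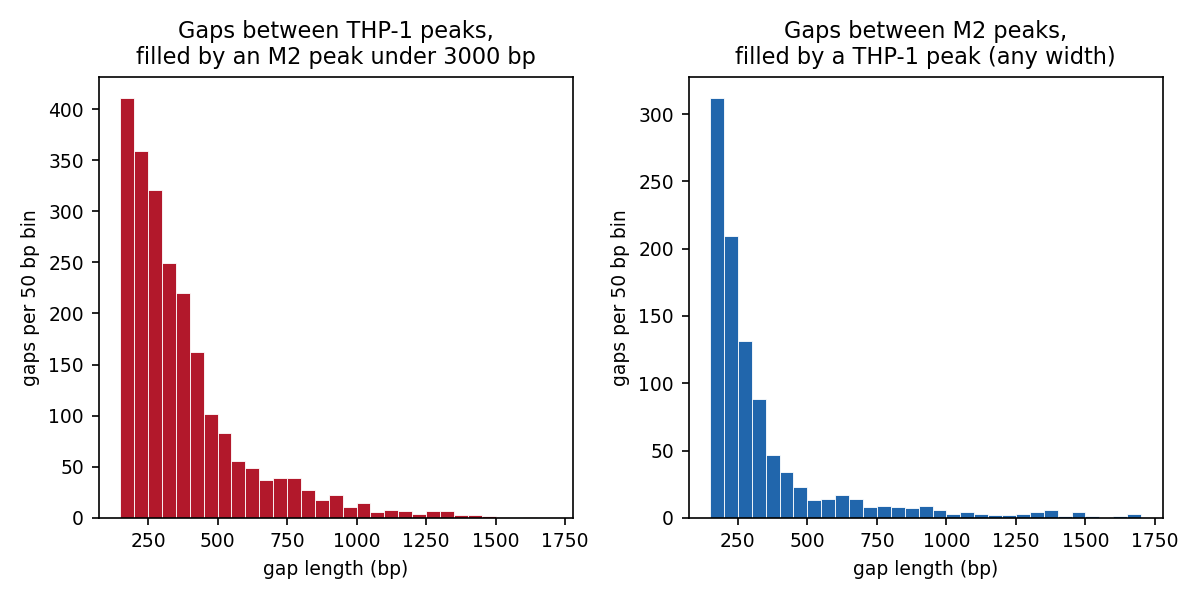
Lengths of the gaps (horizontal axis, bp) in 50 bp bins, with the number of gaps in each bin on the vertical axis; the 2 vertical axes differ in scale. Left, gaps between THP-1 peaks filled by an M2 peak under 3000 bp, with a median of 310 bp; right, gaps between M2 peaks filled by a THP-1 peak of any width, with a median of 244 bp and 13 gaps of 1700 bp or more not drawn.

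The outer edges of the joining M2 peaks did not as a rule enclose the THP-1 peaks. All joined THP-1 peaks lay wholly inside the M2 peak in 791 cases, or 36.1% (34.1 to 38.2). A THP-1 peak ran past 1 edge in 38.1% and past both edges in 25.8%. Where all lay inside, the M2 peak reached a median of 549 bp (295 to 872) beyond the outermost THP-1 peaks, both sides added. A joined THP-1 peak also touched another M2 peak in 162 cases (7.40%), so that both forms of joining met at 1 place.

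The overlap with the least covered of the joined THP-1 peaks had a median of 427 bp (356 to 549). It was under 50 bp at 33 joining peaks and 1 bp at 1 of them. Just outside the rule, 30 M2 peaks over 1 THP-1 peak had a further THP-1 peak less than 50 bp beyond an edge.

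The summit of the M2 peak, a position that the choice of regions did not use, usually fell on a THP-1 peak and not in the filled gap. It lay inside a joined THP-1 peak in 1935 of 2190 cases, or 88.4% (86.9 to 89.7). In 209 cases, 9.54% (8.34 to 10.9), it lay in a filled gap, and in 46 cases, 2.10% (1.54 to 2.79), in a flank. The share in a gap was 2.77% with a -log10 q of at least 10 in each list and 15.2% with peaks within 300 bp merged first. Set against length, the THP-1 peaks held 88.4% of the summits on 64.0% of the sequence, and the gaps held 9.54% on 19.8%. The flanks held 2.10% on 16.2%. Summits are thus not spread evenly over a peak, and a share of sequence is no expected share of summits. The median distance from the M2 summit to the nearest joined THP-1 summit was 59 bp (26 to 134), and 82.3% (80.6 to 83.9) lay within 200 bp. The nearest of 2 or 3 summits was taken here, which shortens the distance. In pairs of 1 M2 peak under 3000 bp and 1 THP-1 peak the median distance was 76 bp (33 to 197).

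Where the M2 summit fell on 1 of 2 THP-1 peaks, it was usually the one with more fragments over its own summit. This held in 79.9% (77.9 to 81.8) of 1725 cases in which both fragment numbers were solved and unequal. By -log10 q the stronger THP-1 peak held the M2 summit in 69.1% (67.0 to 71.2) of 1864 cases, and by fold enrichment in 57.3% (55.1 to 59.6). Fold enrichment divides the fragments by the local background, so these measures need not order a pair alike. The M2 summit lay on the peak of lower coordinate in 51.7% (49.4 to 54.0), an interval that includes 50%. With 3 THP-1 peaks it lay on the middle one in 48 of 71 cases, 67.6% (55.5 to 78.2). The middle peak had the highest -log10 q of the 3 in 38 of 78 cases, 48.7% (37.2 to 60.3). It lies wholly inside the M2 peak by construction, while the outer ones can run past an edge.

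Neighbouring joined THP-1 summits were a median of 762 bp apart (644 to 984). Around the centre of the filled gap of joined pairs, M2 and THP-1 summits both crowded on the 2 sides. Of the M2 summits, 68.5% (66.4 to 70.4) lay 200 to 500 bp from the centre, as did 74.6% (73.3 to 75.9) of the THP-1 summits. Within 100 bp of the centre lay 84 of the 2112 M2 summits, 3.98% (3.18 to 4.90).

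**Figure D2:**
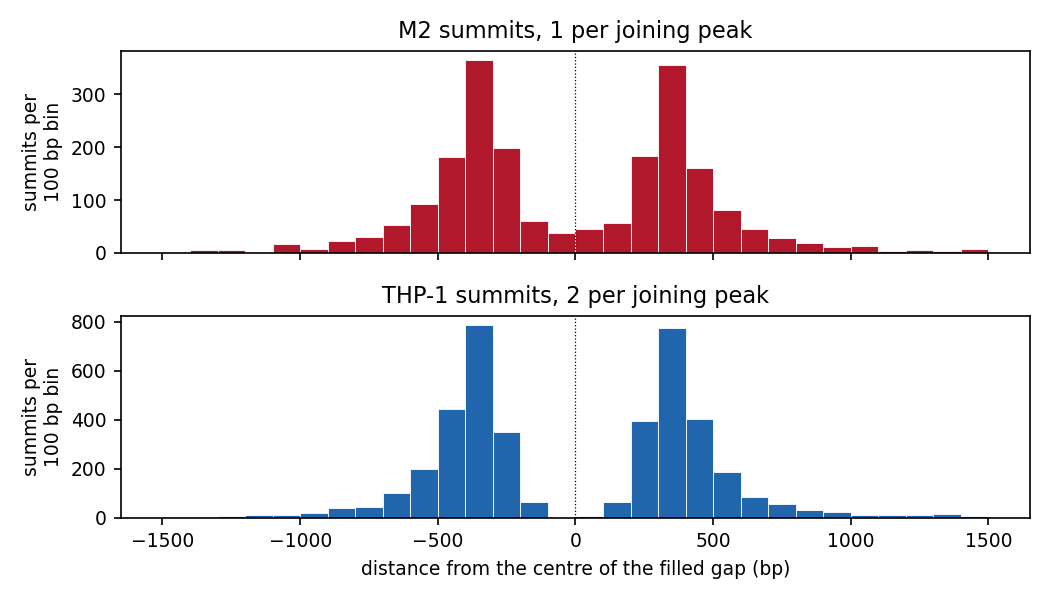
Number of summits per 100 bp bin (vertical axis) by distance from the centre of the filled gap (horizontal axis, bp) at the 2112 M2 peaks that join exactly 2 THP-1 peaks. M2 summits, above, and THP-1 summits, below, both crowd at 200 to 500 bp on either side of the gap centre; 13 M2 and 47 THP-1 summits farther than 1500 bp are not drawn, and the rule itself keeps nearly all THP-1 summits out of the centre.

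The place of the M2 summit changed with the length of the gap. At joined pairs with a gap under 200 bp the summit lay in the gap in 2.43% (1.12 to 4.57) of 370 cases, while gaps made up 9.54% of the M2 sequence there. From 300 to 499 bp the summit lay in the gap in 5.12% (3.60 to 7.05) of 683 cases. From 500 to 799 bp it did so in 22.6% (17.9 to 27.8), and gaps made up 29.6% of the sequence. From 800 bp upwards it lay in the gap in 77 of 137 cases, 56.2% (47.5 to 64.7), on 43.4% of the sequence. Only in this last class did the gaps hold a larger share of summits than of sequence. The gaps that held the M2 summit had a median length of 707 bp (423 to 925), and M2 peaks with their summit in a gap had a lower fold enrichment, a median of 5.99 against 8.07 for those with it on a THP-1 peak.

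The THP-1 peaks of a joined pair were closer in fold enrichment than in width. The higher fold enrichment of the pair was a median of 1.33 times the lower (1.14 to 1.64), and 65.0% of pairs lay within 1.5 times of each other. The wider peak was a median of 1.51 times as wide as the narrower (1.22 to 2.04), and 48.6% of pairs lay within 1.5 times of each other in width. The weaker peak of the pair had a median -log10 q of 6.44 (4.01 to 10.4), the stronger 15.0 (9.41 to 24.7). In 14.9% of pairs (13.4 to 16.5) the weaker peak had a -log10 q under 3, near the lower end of the list at 1.30.

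Joined THP-1 peaks were close to one-to-one THP-1 peaks in width, at a median of 643 bp (459 to 928) against 682 bp (475 to 1060). Here a one-to-one peak is one that overlaps a single M2 peak under 3000 bp, which overlaps it alone. Joined THP-1 peaks had more fragments over the summit, 56 (33 to 91) against 46 (27 to 77). Their local background, divided by the lowest background of the list, was 8.72 (4.22 to 18.1) against 6.21 (3.05 to 14.9). Their median fold enrichment was 3.24 against 3.49.

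The joining M2 peaks were wide and strong for their list, as the rule favours. Their median width was 1974 bp (1559 to 2423, range 317 to 2999), against 981 bp (583 to 1545) for M2 peaks over 1 THP-1 peak. Median fold enrichment was 7.79 (5.96 to 10.4) against 5.91 (4.41 to 8.09), and median -log10 q 41.0 (23.1 to 66.7) against 19.8 (9.12 to 39.8). The difference in strength was smaller once width was held, and its direction was not the same in every width class. From 1500 to 1999 bp wide, joining peaks had a median fold enrichment of 7.75 and a median -log10 q of 37.4, against 7.25 and 37.9 for M2 peaks over 1 THP-1 peak. From 2500 to 2999 bp the values were 8.78 and 63.0 against 8.63 and 56.4. In narrower classes the -log10 q of joining peaks was lower. From 1000 to 1499 bp the values were 7.22 and 23.4 against 6.645 and 26.05. Up to 999 bp they were 4.87 and 8.425 against 4.925 and 10.3.

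The share of M2 peaks over several THP-1 peaks grew with width, and it exceeded that of the reverse case in every width class compared. From 1000 to 1499 bp, 9.41% (8.53 to 10.3) of overlapping M2 peaks joined 2 or more, against 4.75% (4.10 to 5.46) of overlapping THP-1 peaks. From 2000 to 2499 bp these shares were 29.6% (27.6 to 31.7) and 14.7% (12.3 to 17.4). The lists differ in length, and neighbouring peaks on the other side are needed for any joining.

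**Figure D3:**
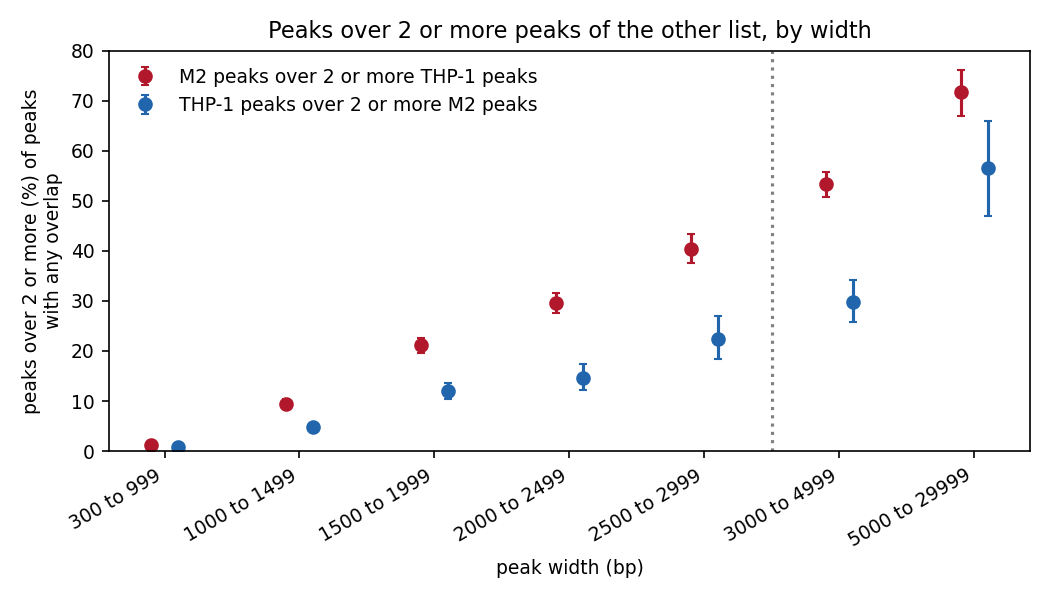
Share of peaks that lie over 2 or more peaks of the other list, in percent of peaks with any overlap (vertical axis), by peak width (horizontal axis, bp), with exact 95% binomial intervals as bars. M2 peaks stand above THP-1 peaks in each class, and the dotted line marks the limit of 3000 bp; to its right, 53.3% of M2 peaks of 3000 to 4999 bp lay over several THP-1 peaks.

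The reverse case was rarer. Of the 926 THP-1 peaks over several M2 peaks, 721 were under 3000 bp wide, so that joining M2 peaks were 3.04 times as many at the same limit. Joining M2 peaks made up 11.5% (11.1 to 12.0) of the M2 peaks under 3000 bp with any overlap, and the reverse case made up 3.12% (2.90 to 3.35) of such THP-1 peaks. With a -log10 q of at least 10 in each list there were 577 joining M2 peaks and 254 reverse cases of any width. With the M2 list cut to the length of the THP-1 list there were 2033 and 260. That cut removes neighbouring M2 peaks and so lowers the reverse count. Pairs again dominated, with 864 of 926, or 93.3% (91.5 to 94.8), over exactly 2 M2 peaks and 2 THP-1 peaks over 5. The gaps filled by joining M2 peaks had the longer median. At the limit of 3000 bp it was 310 bp (95% order-statistic interval 299 to 318), against 233 bp (224 to 241) in the reverse case. Gaps of 500 bp or more were 19.6% (18.0 to 21.3) of those in joining M2 peaks and 8.71% (6.77 to 11.0) of those in the reverse case. The longest gap was 1637 bp in joining M2 peaks and 1734 bp in the reverse case at that limit. The gaps on offer differed in the same direction. Of all neighbours at most 2000 bp apart, 1108 of 8660 THP-1 pairs and 3232 of 17050 M2 pairs had a gap under 200 bp. A gap of 200 to 299 bp was found in 1969 and 5167. Only pairs with both neighbours overlapped can be joined. Of those, 772 of 6069 THP-1 pairs and 785 of 3409 M2 pairs had a gap under 200 bp, and 1386 and 984 had one of 200 to 299 bp. The part of this difference in the lengths filled was not tested.

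In both directions the summit of the joining peak mostly fell on a peak of the other list, in 88.4% (86.9 to 89.7) of joining M2 peaks and 92.0% (89.7 to 93.8) of reverse cases under 3000 bp. It lay in a gap in 9.54% (8.34 to 10.9) of joining M2 peaks and 6.66% (4.95 to 8.73) of these reverse cases. These intervals cover counting error within 1 library per cell type, and the difference between the directions was not tested. Where a THP-1 summit lay on 1 of 2 M2 peaks, that peak had the higher -log10 q in 72.4% (68.8 to 75.8). The THP-1 summit was a median of 80 bp (37 to 205) from the nearest M2 summit.

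Joining peaks were also set against all neighbouring peaks of a list at most 2000 bp apart, which leaves out a few longer gaps under wide peaks. In the THP-1 list 8660 such pairs of neighbours were found. Of these, 2268 (26.2%) were joined by an M2 peak under 3000 bp and 1473 (17.0%) by a wider one. A further 2328 (26.9%) were overlapped by separate M2 peaks, so that a gap was called in both lists. Only 1 of the neighbours was overlapped in 1538 pairs (17.8%) and neither in 1053 (12.2%). The M2 list had 17050 pairs of neighbours, of which 991 (5.81%) were joined by 1 THP-1 peak and 8755 (51.3%) had no THP-1 peak on either neighbour.

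Restricted to pairs in which both neighbours had a counterpart, 61.6% (60.4 to 62.9) of 6069 THP-1 pairs were joined by 1 M2 peak of any width. Of 3409 such M2 pairs, 29.1% (27.5 to 30.6) were joined by 1 THP-1 peak. In both directions the share fell as the gap grew. With a gap of 200 to 299 bp, 76.2% (73.9 to 78.4) of THP-1 pairs were joined, against 34.6% (31.6 to 37.6) of M2 pairs. With a gap of 1000 to 1499 bp these shares were 30.9% (27.3 to 34.8) and 10.4% (7.22 to 14.3).

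**Figure D4:**
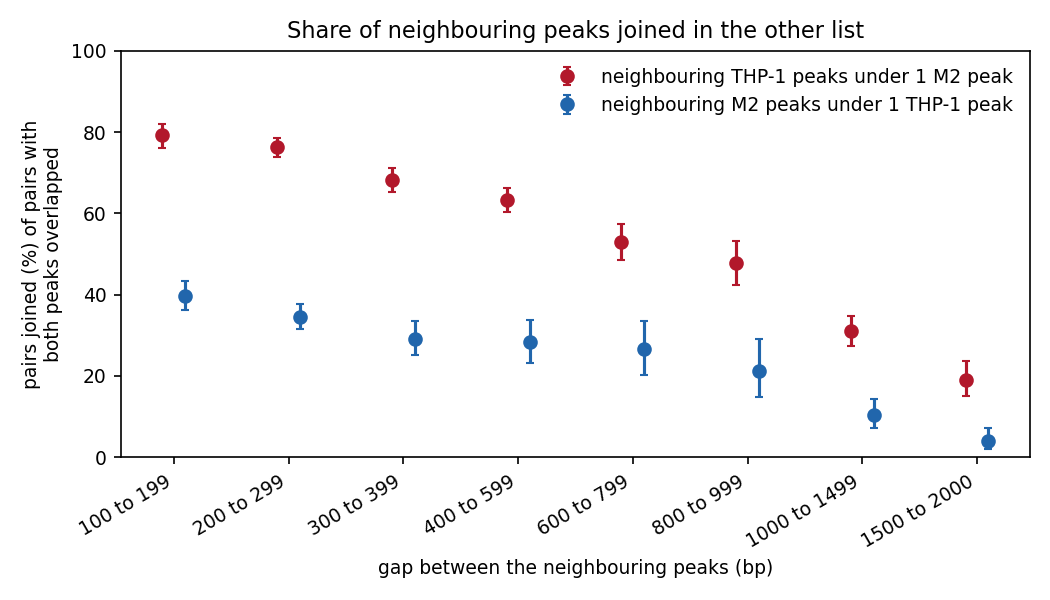
Share of neighbouring peaks joined by 1 peak of the other list, in percent of pairs whose peaks are both overlapped (vertical axis), by gap length (horizontal axis, bp), with exact 95% binomial intervals as bars; M2 peaks of any width are counted. THP-1 neighbours under 1 M2 peak lie above M2 neighbours under 1 THP-1 peak in all classes, 76.2% against 34.6% at 200 to 299 bp.

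The local background moved with joining, in opposite directions in the lists. Joining peaks of any width are counted here, so M2 peaks of 3000 bp or more, outside this set, are included. Among THP-1 neighbours less than 600 bp apart, both overlapped, 62.9% (59.8 to 65.9) were joined by 1 M2 peak in the quartile of lowest THP-1 background and 83.8% (81.3 to 86.0) in the quartile of highest. The median gap was 276 bp in the lowest of these quartiles and 352 bp in the highest. Among M2 neighbours, 48.2% (44.2 to 52.2) were joined by 1 THP-1 peak in the quartile of lowest M2 background and 17.8% (14.9 to 21.1) in the highest. Ordered by the lower summit level of the pair, which is the fragments over the summit, scaled by 0.842 in M2 and by 1 in THP-1 as in the lists, divided by the lowest background of the list, the shares ran the same way. They were 66.2% in the lowest and 79.4% in the highest quartile of THP-1 pairs, and 55.8% and 12.4% for M2 pairs. The part of background or summit level in the joining was not tested.

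At the joining peaks themselves the THP-1 background exceeded the M2 background, each over the lowest of its list, in 88.7% (87.3 to 90.0) of 2172 cases, with a median ratio of THP-1 to M2 of 2.34 (1.47 to 3.46). In one-to-one pairs it did so in 83.8% (83.2 to 84.4), with a median ratio of 2.16 (1.29 to 3.38). In the reverse case under 3000 bp it did so in 77.6% (74.3 to 80.7), with a median ratio of 1.81 (1.09 to 2.96). The part of this background in the number of joined peaks was not tested. On the same scale, the M2 summit level was 0.960 times that of the higher joined THP-1 summit (quartiles 0.681 to 1.31), and the M2 level was the higher in 46.7% (44.5 to 48.9) of 2030 cases. In one-to-one pairs the ratio was 0.916 (0.634 to 1.33).

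Joining M2 peaks were found on all 23 chromosomes, where they made up between 9.34% (7.74 to 11.1) of overlapping M2 peaks under 3000 bp on chromosome 6 and 13.7% (11.4 to 16.3) on chromosome 10. They outnumbered the reverse case, of any width, on 23 of 23 chromosomes. Chromosome 21 had the lowest ratio, with 28 joining M2 peaks and 17 reverse cases, and chromosome 19 the highest, with 114 and 23.

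Of the peaks over 3 THP-1 peaks, the one with the most gap sequence lay on chromosome 17 at 71336640 to 71339262. This M2 peak had a fold enrichment of 12.4 and filled gaps of 1187 and 268 bp. The THP-1 peaks had fold enrichments of 5.57, 4.40 and 2.65, and the M2 summit lay on the middle one, 13 bp from its summit and on the one with 93 fragments where the outer ones had 31 and 19. The next lay on chromosome 2 at 106360828 to 106363678, with gaps of 312 and 908 bp, and again the M2 summit fell on the middle THP-1 peak, 24 bp from its summit. On chromosome 9 at 123637982 to 123640128 the gaps were 662 and 469 bp and the summits of the M2 and the middle THP-1 peak were 20 bp apart. The fourth, on chromosome 19 at 18413556 to 18416447, had gaps of 235 and 829 bp, and its M2 summit lay on the last THP-1 peak, 129 bp from its summit.

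The longest filled gap, 1637 bp, was on chromosome 1 under the M2 peak at 213187684 to 213190498. Its M2 fold enrichment was 8.13, and its M2 summit lay in the gap, 541 bp from the nearer THP-1 summit. The THP-1 peaks had fold enrichments of 1.60 and 2.91 and -log10 q of 1.59 and 14.2. The lower of these is near the lower end of the list at 1.30. A gap of 1513 bp on chromosome 5, under the M2 peak at 141347568 to 141350053, also held the M2 summit. There the M2 summit had 153 fragments and the THP-1 summits 58 and 44, which are not scaled between the libraries. As summit levels these were 66.4 against 32.8 and 24.9. On chromosome 2 at 242253468 to 242256388 a gap of 1480 bp held an M2 summit of 245 fragments, between THP-1 summits of 124 and 105 fragments. The summit levels there were 106.3 in M2 against 70.1 and 59.3 in THP-1. Despite their fragment numbers these THP-1 peaks had fold enrichments of 1.64 and 1.47 over their local background, and -log10 q of 4.65 and 2.06. The gap of 1461 bp under the M2 peak on chromosome 3 at 57259961 to 57262832 did not hold the summit, which lay on the second THP-1 peak.

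Highest in M2 fold enrichment, at 49.6, was a joining peak on chromosome 10 at 63659014 to 63661513. It filled a gap of 989 bp between THP-1 peaks of 7.21- and 16.3-fold enrichment, and its summit lay 18 bp from that of the stronger one. At chromosome 1, 94223181 to 94225694, an M2 peak of 32.9-fold enrichment joined THP-1 peaks of 2.13 and 3.98 across 290 bp. Another on chromosome 1, at 28188880 to 28191783, had 29.8-fold enrichment and joined peaks of 2.70 and 7.84 across 329 bp. The fourth, on chromosome 15 at 68643969 to 68646779, had 29.3-fold enrichment and a gap of 173 bp. In all 4 the M2 summit lay on the THP-1 peak of the higher fold enrichment. Fold enrichments are relative to the background of their own list, so these values do not measure a difference between the cell types.

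Among peaks with the M2 summit in a gap, the highest M2 fold enrichment, 18.9, was on chromosome 9 at 101942985 to 101945307. Its summit lay 52 bp from the nearest of 3 THP-1 summits, in a gap of 235 bp. The THP-1 peak of that nearest summit had a -log10 q of only 1.96. On chromosome 20 at 4793511 to 4796408 the M2 summit had 182 fragments in a gap of 887 bp, and the THP-1 summits to its sides, 1052 and 606 bp away, had 75 and 59. On chromosome 1 at 179519639 to 179521392 the M2 summit had 97 fragments in a gap of 846 bp between THP-1 summits of 10 and 19 fragments. The -log10 q of these THP-1 peaks was 3.29 and 1.91. The remaining one, on chromosome 1 at 46007052 to 46009631, had 136 fragments in a gap of 494 bp, against 16 and 27 at the THP-1 summits. Fragment numbers are as sequenced and were not scaled between the libraries.

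**Figure D5:**
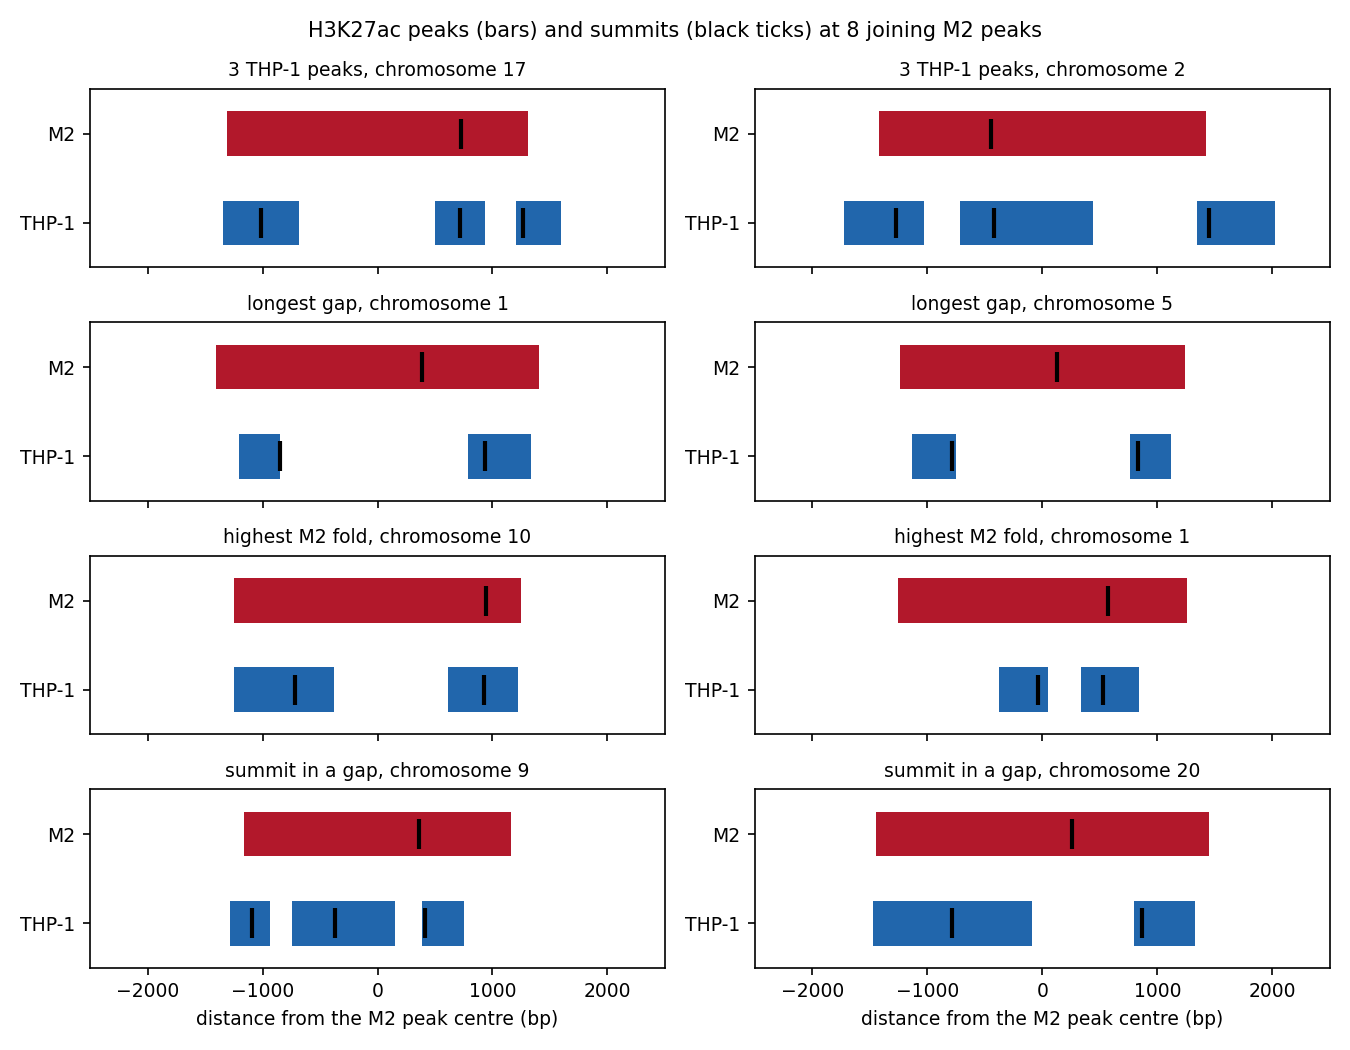
Peaks (bars) and summits (black ticks) of the M2 list, above, and the THP-1 list, below, by distance from the centre of the M2 peak (horizontal axis, bp) at 8 of the named regions. The M2 summit falls on a THP-1 peak in the 2 panels titled 3 THP-1 peaks, on chromosomes 17 and 2, and in those of highest M2 fold. It falls in a gap in the other panels. These include the longest gap of 1637 bp on chromosome 1 and another peak over 3 THP-1 peaks, on chromosome 9.

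At the short end, 10 gaps had the smallest length of 151 bp. The first by position of these joining peaks, on chromosome 1 at 227637838 to 227639335, had its summit 29 bp from the summit of the stronger THP-1 peak. The second, on chromosome 10 at 99411955 to 99413943, had its summit 23 bp from that of the stronger THP-1 peak, which had 8.45-fold enrichment against 3.59 for the weaker. Just inside the width limit lay M2 peaks of 2999 bp on chromosome 10 at 114911418 to 114914416 and of 2998 bp on chromosome 18 at 22909845 to 22912842, with fold enrichments of 8.07 and 7.07 and gaps of 963 and 352 bp. Just outside it, M2 peaks of 3000 bp on chromosome 15 at 55541714 to 55544713 and of 3002 bp on chromosome 11 at 14560558 to 14563559 had fold enrichments of 16.8 and 8.62 and gaps of 236 and 287 bp.

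In the reverse case, the THP-1 peaks over the most M2 peaks were wide. On chromosome 1 at 44260378 to 44267654 a THP-1 peak of 7277 bp lay over 5 M2 peaks of 309 to 890 bp. The M2 summits had 27 to 51 fragments and the THP-1 summit 235. A THP-1 peak of 9633 bp on chromosome 13 at 99874264 to 99883896 also lay over 5 M2 peaks. There the strongest M2 summit had 163 fragments and the THP-1 summit 117. Fragment numbers are not scaled between the libraries, and as summit levels these were close, at 70.7 in M2 and 66.1 in THP-1. The longest gap inside a THP-1 peak, 2977 bp, was on chromosome 7 at 34173577 to 34183099. Next came 2786 bp on chromosome 10 at 65168669 to 65181412, 2441 bp on chromosome 1 at 236114621 to 236124100, both over 4 M2 peaks, and 2240 bp on chromosome 17 at 64843408 to 64850644.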

How the data were processed

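H3K27ac ChIP-seq peak lists of M2 macrophages and THP-1 cells were compared, 1 library each. Per the submitters' processing notes, Bowtie2, MACS2 version 2.1.0 and hg19 were used. Their settings and control are not stated there. The lists have no header and were read in narrowPeak order. The fold enrichment (a ratio over local background), the -log10 p, the -log10 q and the unused score of each peak are values deposited by the authors and describe peaks within a list. The lowest -log10 q was 1.31 (M2) and 1.30 (THP-1). Peak numbering starts at 2468 (M2) and 1253 (THP-1), and the lower numbers are not used here.

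Overlaps were computed with numpy 2.4.6 and pandas 2.3.3, and tested on simulated peaks against bedtools 2.31.1. Start and summit offset are 0-based in the lists, and printed positions are 1-based. A summit is placed in a joined peak, a gap or a flank. Fragments and background were solved from fold enrichment, (pileup + 1)/(background + 1), and the Poisson p-value, with the M2 pileup scaled by 0.842. Of the M2 peaks 99.98%, and of the THP-1 peaks 99.98%, then had a whole number (tolerance 0.02), against 9.47% and 11.6% at a typical other scale. Single solutions, 55465 and 30442, were used. The members and lists were chosen with earlier results of these data known. Named regions are those with the most joined peaks, longest or shortest gaps, highest M2 fold enrichment (all, and with the summit in a gap), and widths nearest 3000 bp. With no replicates no p-value was computed. Alternatives were another overlap, -log10 q, list length, merging of near peaks and width limits. Sequences are not printed, because no hg19 genome was used here.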

Additional observations from a re-analysis of the deposited data

How the results depend on the processing

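Joining M2 peaks outnumbered the reverse THP-1 peaks in each setting that gives both, by 2.17 to 3.21 times where the changed setting was applied to both lists. The ratio was 7.82 with the M2 list alone cut, which lowers the reverse count by removing M2 neighbours and is no check of the excess. The ratio of 2.17 limits both sides to 2000 bp and stands against 3.04 with both limited to 3000 bp. The others have no limit on the reverse case and stand against 2.37. With at least 50% of each joined peak inside, the median gap was 320 bp and the reverse count 598. A -log10 q of at least 10 in each list left lists of unequal length, 34097 M2 and 13241 THP-1 peaks. There were then 577 joining M2 peaks and 254 reverse THP-1 peaks, and 98.3% of these M2 peaks joined exactly 2. Their median gap was 261 bp, 96.5% of M2 summits lay on a THP-1 peak and 2.77% in a gap. With the M2 list cut to the 31444 peaks of highest -log10 q the reverse count was 260, since neighbouring M2 peaks were removed, while 2033 joining M2 peaks were left. With peaks within 300 bp merged first, the shortest gaps are gone by construction: 98.6% joined exactly 2, the median gap was 443 bp, 84.0% of summits lay on a THP-1 peak and 15.2% in a gap, and the reverse count was 460. Under a limit of 2000 bp there were 1138 joining M2 and 525 reverse THP-1 peaks, with 98.7% joining exactly 2 and a median gap of 279 bp. Without a limit, 88.3% joined exactly 2 and the median gap was 329.5 bp. Of the 35 values under other settings 15 stayed close to those reported, within 1.5 times for counts and within the 95% interval for shares and medians. No paired analysis was possible because each cell type has 1 H3K27ac library.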
